A study of Canis lupus familiaris with 12 samples.

Results

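MDCKII cells are a polarized epithelial line from dog kidney, and mRNA was sequenced from WT cells and from lines that lack CGN (CGN-KO), CGNL1 (CGNL1-KO), or both genes (double-KO). Each of these 4 genotypes gave 3 libraries, 12 in all, and no group was treated. The core described here is the set of genes that stood above WT by a set minimum in every one of the 3 KO lines, or below it in every one. A gene entered it when its mean log2(CPM + 1) differed from the WT mean by at least 1 in each line. CPM is the read count scaled to library size. The minimum is 2-fold on CPM + 1, which asks for more than 2-fold in CPM from low genes. The core could be chosen from the 12650 genes that exceeded 1 CPM in 3 or more libraries. The core held 35 of these genes (0.277%), of which 24 were higher (0.190%) and 11 lower (0.0870%) in the KO lines. The differences from WT chose the genes, so these differences are given as a description and without a test. The 3 lines were compared with the same 3 WT libraries, so the lines do not find a gene independently of each other. Each KO genotype was 1 clonal line made with CRISPR-Cas9, so the effect of a genotype and that of a clone cannot be told apart. The study used clonal WT lines in other experiments, but the sources used here do not say whether the sequenced WT cells were a clone, or whether the libraries of a genotype came from separate cultures, so p-values measure only the spread between these libraries.

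CGN (cingulin) and CGNL1 (paracingulin) are related coiled-coil proteins on the cytoplasmic side of epithelial junctions. Cingulin is recruited to tight junctions by ZO-1, paracingulin is found at tight and adherens junctions, where it can bind PLEKHA7, and both connect junctional complexes to nonmuscle myosin-2. Neither is known as a DNA-binding transcription factor.

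Both targeted genes were lower in the lines named for them. CGN mRNA was at 199 to 233 CPM in WT, 198 to 213 CPM in CGNL1-KO, 47 to 56.5 CPM in CGN-KO, and 39.7 to 45.3 CPM in double-KO cells. CGNL1 mRNA was at 7.74 to 12.3 CPM in WT, 5.04 to 6.92 CPM in CGN-KO, 1.76 to 3.02 CPM in CGNL1-KO, and 1.11 to 1.76 CPM in double-KO cells. A line edited by CRISPR-Cas9 can keep mRNA without protein, so these levels check the labels only. All 8 epithelial markers checked were listed, and their summed level was 7010 to 7160 CPM in WT and 7050 to 7800 CPM in KO libraries. Of 13 markers of other cell types, PTPRC, CD3E, PECAM1, CDH5, CDH2, COL1A1, COL1A2, and THY1 were not among the listed genes, whereas VIM and FN1, which cultured MDCK cells express, were. The sum of the 2 listed leukocyte markers was 5.5 to 5.85 CPM in WT and 5.4 to 6.91 CPM in KO libraries, and VWF was below 1 CPM in all libraries.

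Between 16837532 and 30086076 reads per library lay behind the values. The libraries numbered 1 of WT, CGN-KO, and CGNL1-KO stood apart from numbers 2 and 3: for 10 core genes (ANXA13, CFB, CYP4A11, ETV1, F2, GPX2, IGF2, RBP4, RIPPLY1, and SLC6A12) library 1 was the highest of its group in all 3 genotypes, and for 3 (ODAPH and ZBED2 among them) it was the lowest in all 3. Over all genes tested these shares were 15.6% and 13.3%. Without these 3 libraries the rule gave 33 genes, of which 25 were among the 35.

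For all 35 core genes the 9 KO libraries lay wholly above or wholly below the 3 WT libraries, as did 12.6% of all genes tested. The same values had chosen the core genes, so their separation was largely given by the choice and is a description only. The higher genes had median differences of 1.52 (CGN-KO), 1.27 (CGNL1-KO), and 1.34 (double-KO) on the log2(CPM + 1) scale, and the lower genes of -1.64, -1.66, and -1.65. The medians over all genes tested lay within 0.004 of 0 in each line. By line, the genes higher by at least 1 were 124 for CGN-KO (0.980% of those tested), 48 for CGNL1-KO (0.379%), and 97 for the double-KO (0.767%), and the core made up 19.4%, 50.0%, and 24.7% of them. The genes lower by at least 1 were 42 (0.332%), 30 (0.237%), and 81 (0.640%), of which the core made up 26.2%, 36.7%, and 13.6%.

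**Figure D1:**
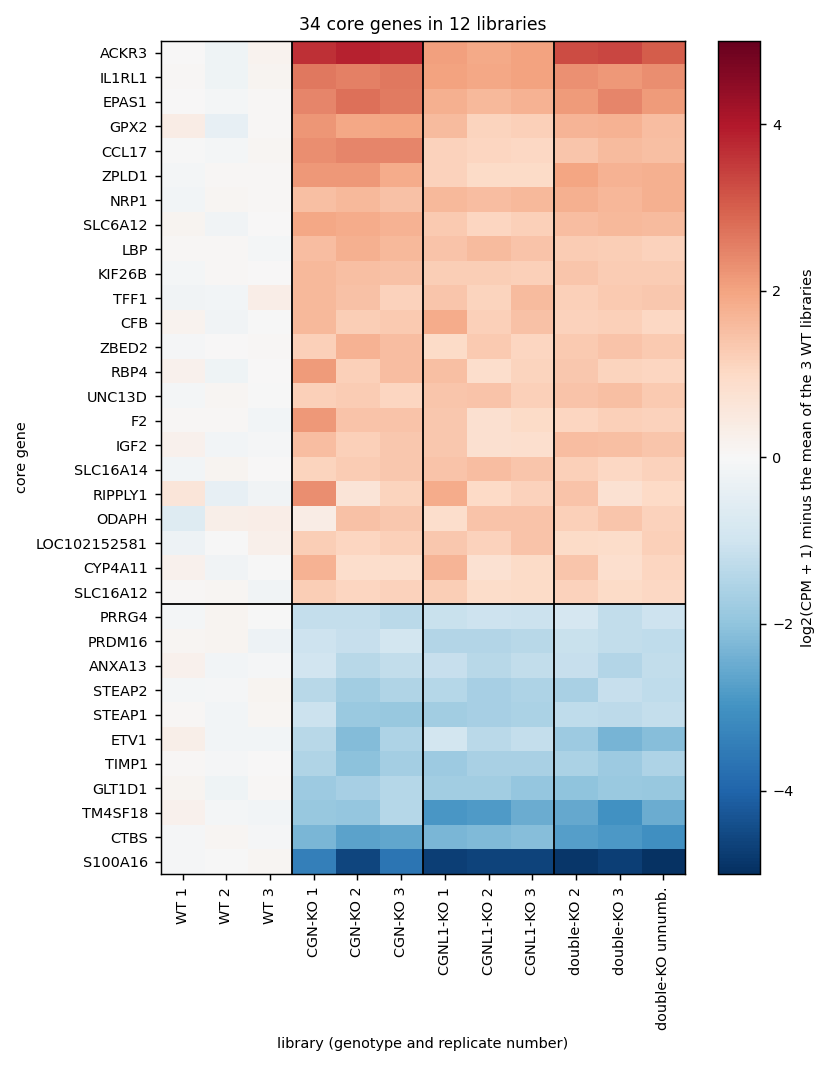
Each row is 1 of 34 core genes and each column 1 of the 12 libraries; colour gives log2(CPM + 1) minus the mean of the 3 WT libraries, from blue (lower) to red (higher). The 23 higher genes are red in all 9 KO libraries and the 11 lower genes blue, with a paler cell for ODAPH in library 1 of CGN-KO.

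The 5 receptor and ligand genes of the core (ACKR3, IL1RL1, NRP1, CCL17, and IGF2) were all higher in the KO lines. ACKR3 encodes an atypical chemokine receptor that binds and removes CXCL12. Its level was 7.78, 6.62, and 8.98 CPM in WT 1 to 3, 108, 126, and 117 CPM in CGN-KO, 35.7, 31.1, and 34.2 CPM in CGNL1-KO, and 82.5, 87.7, and 70.2 CPM in double-KO cells (numbers 2 and 3 and the library without a number, in this order throughout). The lowest KO library was 3.47 times the highest WT library, and the 3 lines did not overlap each other. The means were 15, 4.32, and 10.3 times that of WT for the 3 lines, taken in the same order. In bulk RNA, a change in the number of cells that express a gene and a change in its mRNA per cell cannot be told apart.

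IL1RL1 (ST2) encodes the receptor for the cytokine IL-33. It was at 58.2, 47.7, and 61.2 CPM in WT, 354, 326, and 350 CPM in CGN-KO, 229, 215, and 229 CPM in CGNL1-KO, and 272, 256, and 280 CPM in double-KO libraries. The order of the lines was that of ACKR3, again without overlap, with means 6.16, 4.03, and 4.84 times the WT mean.

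NRP1 encodes neuropilin-1, a co-receptor for secreted semaphorins and VEGF. In WT it was at 2.47, 3.04, and 2.96 CPM, and it was at 9.89, 10.8, and 9.57 CPM in CGN-KO, 10.9, 10.2, and 10.9 CPM in CGNL1-KO, and 12.2, 11.2, and 12 CPM in double-KO cells. The 3 lines lay close together, at 3.57, 3.76, and 4.17 times the WT mean.

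CCL17 encodes a chemokine that attracts T cells through CCR4. Its WT values of 33.9, 32.1, and 36.6 CPM compare with 176, 191, and 190 CPM in CGN-KO, 77.4, 73.7, and 71.9 CPM in CGNL1-KO, and 92, 103, and 99 CPM in double-KO cells. CGN-KO stood apart from both other lines, at 5.43 times WT against 2.17 and 2.87 times.

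IGF2 encodes a growth factor and is imprinted in mammals. The WT libraries held 147, 114, and 120 CPM, the CGN-KO libraries 374, 293, and 322 CPM, the CGNL1-KO libraries 326, 222, and 227 CPM, and the double-KO libraries 366, 359, and 336 CPM. IGF2 passed the rule by the smallest margin: its difference from WT in CGNL1-KO was 1.005. LOC102152581 (1.02) was also just inside the threshold, and the nearest outside were CYP4A37 (0.99), DLA-DMB (0.983), and BBOF1 (0.98, lower in KO).

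**Figure D2:**
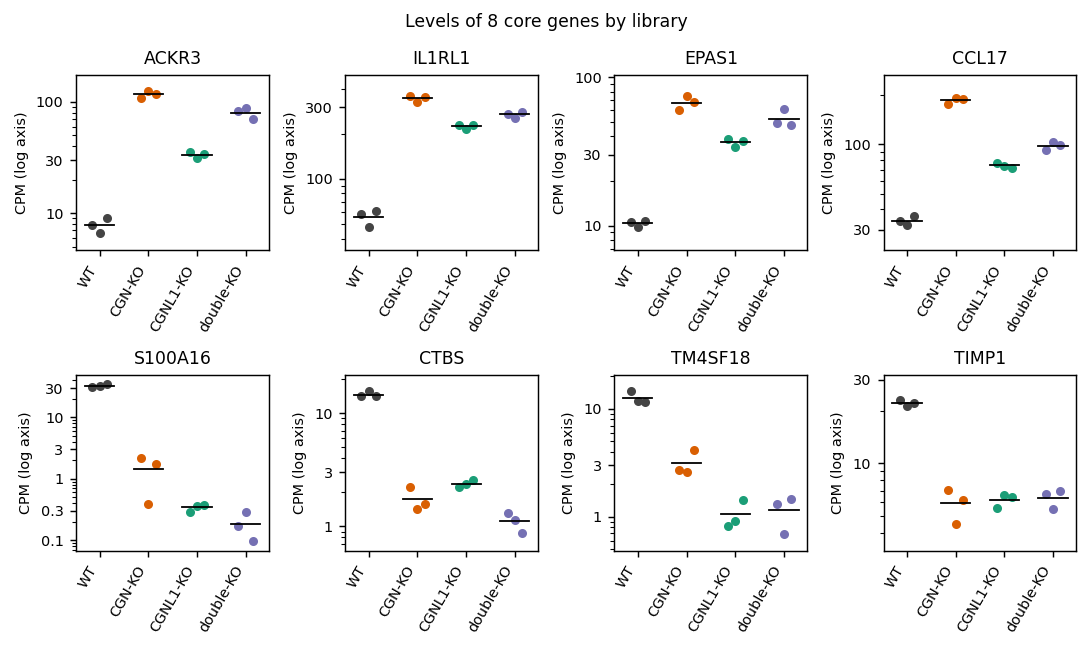
Levels of 8 core genes in CPM on a log axis, with 1 point per library and a line at the mean of the 3 libraries of a genotype. ACKR3, IL1RL1, EPAS1, and CCL17 lie highest in CGN-KO and lowest in WT, and S100A16, CTBS, TM4SF18, and TIMP1 lie highest in WT.

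Among the transcriptional regulators 3 were higher (EPAS1, ZBED2, and RIPPLY1) and 2 lower (ETV1 and PRDM16). EPAS1 encodes HIF-2α, the oxygen-regulated subunit of a hypoxia-inducible factor. It was at 10.5, 9.72, and 10.8 CPM in WT, 60.5, 74.8, and 68 CPM in CGN-KO, 38.3, 34.1, and 37.2 CPM in CGNL1-KO, and 49.1, 61.3, and 48.1 CPM in double-KO cells. CGN-KO and double-KO libraries overlapped in 1 library, whereas the CGNL1-KO libraries lay below both, and the means were 6.54, 3.53, and 5.1 times WT.

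ZBED2, a zinc finger factor, was at 18.3 to 19.7 CPM in WT and 38.4 to 66.2 CPM in KO libraries. RIPPLY1, a co-repressor best known from somite formation, had a narrow gap, with 6.6 CPM in the highest WT library and 6.81 CPM in the lowest KO library. Library 1 was its highest in WT and in both single-KO lines.

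ETV1, an ETS family factor, was at 14.4, 10.4, and 10.6 CPM in WT, 3.89, 1.83, and 3.37 CPM in CGN-KO, 5.69, 3.93, and 4.6 CPM in CGNL1-KO, and 2.62, 1.54, and 1.89 CPM in double-KO cells. Its mean level was lowest in double-KO cells. PRDM16, a zinc finger regulator known from brown fat and blood stem cells, was at 1.34 to 2.04 CPM in WT and at or below 0.472 CPM in KO libraries, with 0 reads in 2 CGNL1-KO libraries. PRDM16 needed its WT libraries to pass the filter on low values, as did GLT1D1, PRRG4, and S100A16, so these genes could enter the core only as lower. S100A16 was above 1 CPM in CGN-KO libraries 1 and 3 as well (2.21 and 1.71 CPM), too few to pass without WT. F2, in contrast, was below 1 CPM in every WT library and could enter it only as higher. TFF1 was below 1 CPM in WT libraries 1 and 2 (0.766 and 0.828 CPM) and likewise needed its KO libraries to pass.

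The 5 genes for secreted plasma or mucosal proteins (LBP, CFB, F2, RBP4, and TFF1) were higher in the KO lines. LBP binds bacterial lipopolysaccharide, and CFB (complement factor B) is a protease of the alternative complement pathway. LBP was at 16.1, 16.1, and 14.5 CPM in WT, 47, 55.6, and 50.3 CPM in CGN-KO, 43.1, 48.4, and 44 CPM in CGNL1-KO, and 38.8, 37.8, and 35.6 CPM in double-KO cells. CFB ranged from 14.3 to 18.5 CPM in WT and from 34.6 to 60.8 CPM in KO libraries. LBP and CFB were thus each lowest in double-KO cells among the KO lines by the mean.

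RBP4, the plasma carrier of retinol, was at 12 to 16.5 CPM in WT and 27 to 65.1 CPM in KO libraries. TFF1, a trefoil peptide of mucosal surfaces, rested on 13 to 32 reads in WT and 58 to 156 reads in KO libraries, and was at 0.766 to 1.53 CPM against 3.34 to 5.14 CPM. F2 (prothrombin) rested on 8 to 10 reads in WT libraries, at 0.382 to 0.589 CPM, and on 36 to 174 reads in KO libraries, at 1.62 to 5.74 CPM. F2 was thus a gene of low level in all lines.

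TIMP1 encodes an inhibitor of matrix metalloproteinases. Its level was 22.9, 21.2, and 22.2 CPM in WT, 7.09, 4.54, and 6.2 CPM in CGN-KO, 5.57, 6.59, and 6.42 CPM in CGNL1-KO, and 6.71, 5.48, and 6.93 CPM in double-KO cells. The 3 lines overlapped throughout, and the WT mean was 3.72, 3.57, and 3.47 times those of the lines.

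All 3 transporter genes were higher. SLC6A12 encodes a betaine and GABA transporter that kidney cells use to take up betaine as an osmolyte. It was at 18, 14.3, and 16.5 CPM in WT, 65.1, 61.9, and 56.5 CPM in CGN-KO, 41.6, 34.9, and 38.5 CPM in CGNL1-KO, and 48.9, 52.1, and 50 CPM in double-KO cells. The lines did not overlap and stood in the order CGN-KO, double-KO, CGNL1-KO. SLC16A12, a creatine transporter, ranged from 6.64 to 8.28 CPM in WT and from 15.2 to 19.5 CPM in KO libraries. For SLC16A14, a member of the monocarboxylate transporter family, the ranges were 1.41 to 1.93 CPM and 4.42 to 6.73 CPM.

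Of the enzymes, GPX2 and CYP4A11 were higher and CTBS and GLT1D1 lower. GPX2 is a glutathione peroxidase of epithelia. It was at 7.37, 3.81, and 5.64 CPM in WT, 29, 23.6, and 24.5 CPM in CGN-KO, 18.5, 13, and 13.5 CPM in CGNL1-KO, and 20, 20.4, and 17.8 CPM in double-KO cells. CYP4A11, a fatty acid hydroxylase, was at 4.53 to 6.42 CPM in WT and 9.61 to 20.4 CPM in KO libraries. It lies near the related CYP4A37, and how the counting shared reads between these similar genes is uncertain.

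CTBS encodes chitobiase, a lysosomal enzyme that degrades the sugar chains of glycoproteins. Its WT values were 14.1, 15.6, and 14.2 CPM, against 2.21, 1.43, and 1.59 CPM in CGN-KO, 2.21, 2.35, and 2.57 CPM in CGNL1-KO, and 1.31, 1.14, and 0.872 CPM in double-KO cells. The WT mean was 8.4, 6.17, and 13.3 times those of the 3 lines, from 820 reads in the 3 WT and 330 reads in the 9 KO libraries. GLT1D1, a predicted glycosyltransferase, was at 2.87 to 3.95 CPM in WT and 0.114 to 0.65 CPM in KO libraries, where it rested on 2 to 11 reads.

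STEAP1 and STEAP2, from the family of STEAP metalloreductases that handle iron and copper, were both lower. STEAP2 was at 28.9, 29.5, and 33.7 CPM in WT, 10.9, 8.49, and 10 CPM in CGN-KO, 10.7, 8.94, and 9.84 CPM in CGNL1-KO, and 9.27, 13.1, and 12 CPM in double-KO cells. STEAP1 was at 8.39 to 10.3 CPM in WT and 1.83 to 4.02 CPM in KO libraries. The pair are direct neighbours among the tested genes, and they were the 1 pair of core genes that lay within 5 tested genes of each other.

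The largest difference in the core was that of S100A16, an EF-hand calcium-binding protein. It was at 31.6, 32.1, and 35.1 CPM in WT, 2.21, 0.395, and 1.71 CPM in CGN-KO, 0.29, 0.361, and 0.375 CPM in CGNL1-KO, and 0.171, 0.284, and 0.0969 CPM in double-KO cells. These values rest on 537 to 734 reads in WT, 8 to 67 in CGN-KO, 5 to 8 in CGNL1-KO, and 2 to 7 in double-KO libraries. The gene was therefore close to the limit of detection in CGNL1-KO and double-KO cells and above it in 2 CGN-KO libraries. On the log2(CPM + 1) scale the differences were -3.88, -4.66, and -4.84 in CGN-KO, CGNL1-KO, and double-KO cells.

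ANXA13, a membrane-binding annexin of kidney and gut epithelium, differed less. It was at 172, 136, and 142 CPM in WT, 76.9, 56.1, and 63.1 CPM in CGN-KO, 67.5, 56.5, and 63 CPM in CGNL1-KO, and 66.1, 54, and 62.4 CPM in double-KO cells. All 3 lines overlapped. PRRG4, a transmembrane protein with a Gla domain, was at 1.36 to 1.77 CPM in WT and at most 0.398 CPM in KO libraries, with 0 to 7 reads each.

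The last group holds genes with other roles, of which 5 were higher and 1 lower. TM4SF18, a membrane protein of the L6 family, was at 14.8, 11.9, and 11.5 CPM in WT, 2.7, 2.62, and 4.13 CPM in CGN-KO, 0.813, 0.903, and 1.44 CPM in CGNL1-KO, and 1.31, 0.69, and 1.45 CPM in double-KO cells. CGN-KO held more of this mRNA than both lines that lack CGNL1, and its libraries did not overlap theirs. ZPLD1, a zona pellucida domain protein, was at 2.12, 2.48, and 2.53 CPM in WT, 14.3, 14.4, and 11.1 CPM in CGN-KO, 6.56, 5.51, and 5.56 CPM in CGNL1-KO, and 12.3, 10.2, and 10.6 CPM in double-KO cells. ZPLD1 was lowest in CGNL1-KO among the lines.

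KIF26B, a kinesin-family protein required for kidney development, ranged from 1.77 to 2.15 CPM in WT and from 5.89 to 8.28 CPM in KO libraries. UNC13D, a priming factor for granule exocytosis, ranged from 1.53 to 1.93 CPM and from 4.66 to 6.74 CPM. ODAPH, a phosphoprotein known from tooth enamel, had the narrowest gap of the core, with 15.8 CPM in the highest WT library and 15.9 CPM in CGN-KO library 1. LOC102152581, a long noncoding RNA by its RefSeq entry, was at 3.12 to 4.87 CPM in WT and 8.2 to 12.1 CPM in KO libraries.

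The sizes of the core differences were then compared between the KO lines. The rule used the mean of each line and left out genes with 1 weak line, such as MYL9, BASP1, and TFAP2A. These comparisons are therefore not independent of it. The counts are a description only, given beside the shares of all genes where these were computed. Of the 35 genes, 14 differed among the 3 lines (limma F test, adjusted p below 0.05) and 21 did not pass, against 16.1% of all genes tested. The 14 were ACKR3, CCL17, EPAS1, F2, GPX2, IGF2, IL1RL1, LBP, SLC6A12, and ZPLD1 among the higher and CTBS, ETV1, S100A16, and TM4SF18 among the lower genes. In 8 of these 10 higher genes the mean was largest in CGN-KO, intermediate in double-KO, and smallest in CGNL1-KO cells, and IGF2 and LBP were the exceptions. Over all 24 higher genes the difference was largest in CGN-KO for 16, in double-KO cells for 5, and in CGNL1-KO for 3. The shares of all genes tested with these orders were not computed, so the orders are not read as particular to the core. Among all genes tested, too, more were higher by at least 1 in CGN-KO (124) than in double-KO cells (97) or CGNL1-KO (48).

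**Figure D3:**
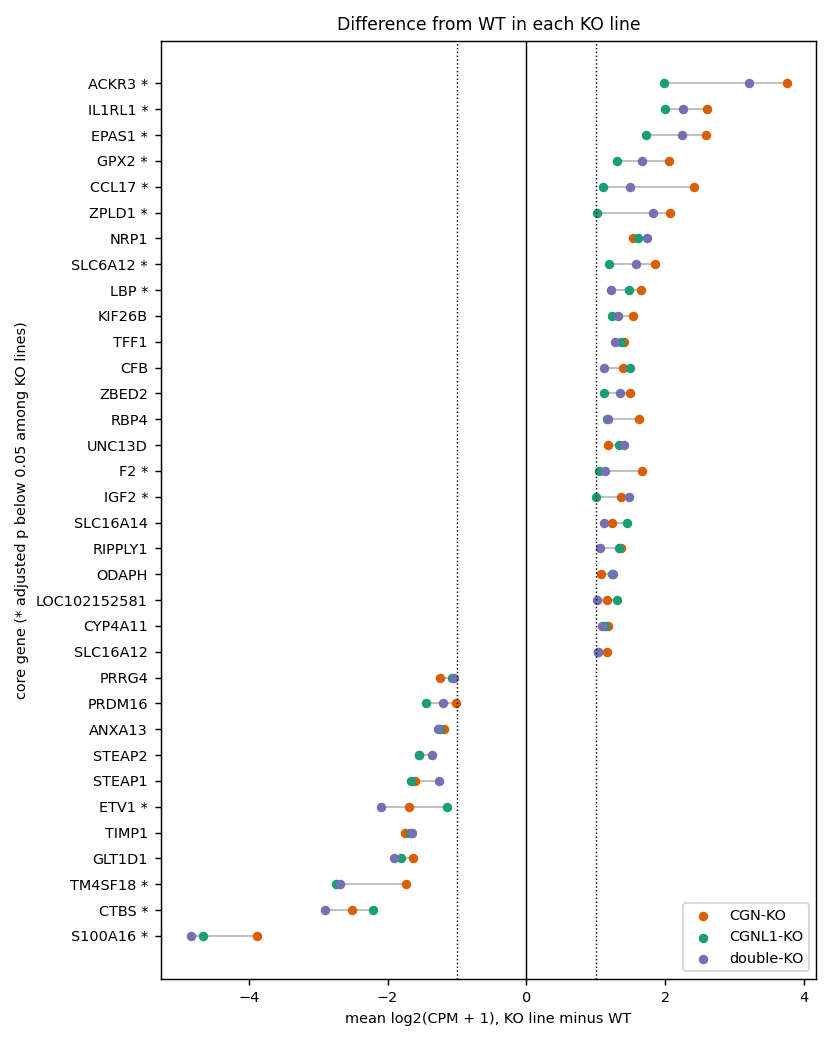
Mean log2(CPM + 1) of each KO line minus WT for 34 core genes, with 1 point per line, dotted lines at the threshold of 1, and an asterisk where the lines differed (adjusted p below 0.05, 14 genes). The points of ACKR3 are spread from 1.99 to 3.75, whereas those of TIMP1 lie between -1.75 and -1.65.

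CGN-KO exceeded CGNL1-KO cells in all 9 core genes that passed the test of this pair (limma, adjusted p below 0.05, 5.19% of all genes tested): ACKR3, CCL17, EPAS1, GPX2, IL1RL1, S100A16, SLC6A12, TM4SF18, and ZPLD1. The 5.19% holds genes of both directions, so it gives no background for the shared direction of these 9. For S100A16 and TM4SF18 the higher level in CGN-KO means a smaller distance from WT. The labels do not say what a replicate number marks, but same-numbered libraries of these 2 lines deviated alike, least for number 3. With the replicate number as a block 17 core genes passed, these 9 included, whereas the share of all genes tested that passed was also larger, at 15.5%. Of the 9, ACKR3 differed by 1.77 ± 0.10 (SE), CCL17 by 1.31 ± 0.06, ZPLD1 by 1.05 ± 0.12, and TM4SF18 by 1.01 ± 0.18 on the log2 scale, at least 2-fold each, as did 0.648% of all genes tested. The adjusted p-values from limma were 1.16e-08, 1.59e-09, 3.3e-05, and 0.00201.

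Double-KO cells were lower than CGN-KO cells in all 7 core genes that passed (limma, adjusted p below 0.05, 8.84% of all genes tested): ACKR3, CCL17, EPAS1, IL1RL1, LBP, S100A16, and TM4SF18. S100A16 differed by -0.96 ± 0.21 (SE, adjusted p = 0.0105 from limma), TM4SF18 by -0.95 ± 0.18 (adjusted p = 0.00305), and CCL17 by -0.92 ± 0.06 (adjusted p = 7.26e-07). The levels were lower in double-KO cells both for the 5 genes that stood above WT and for S100A16 and TM4SF18, which stood below it. Here too the 8.84% holds genes of both directions.

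Double-KO and CGNL1-KO cells differed in 10 core genes (limma, adjusted p below 0.05, 14.4% of all genes tested). ACKR3, CCL17, EPAS1, IGF2, IL1RL1, SLC6A12, and ZPLD1 were higher in double-KO cells, and CTBS, ETV1, and LBP were lower. ACKR3, with a difference of 1.22 ± 0.10 (SE, adjusted p = 7.76e-07 from limma), was the 1 core gene past a 2-fold difference, as were 0.696% of all genes tested. TM4SF18 differed by 0.06 ± 0.18 (adjusted p = 0.862) and S100A16 by -0.18 ± 0.21 (adjusted p = 0.638) in this pair. These p-values miss the threshold, which does not show that the levels were equal.

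Each library was also left out in turn and the genes were chosen again from the other 11. The core then had 32 to 37 genes, of which 28 to 34 were among the 35. A KO library left out was compared with the WT mean, and a WT library left out with the mean of each of the 3 KO lines. In the library left out, every gene so chosen lay on the same side of these means. The share that differed by at least 1 was 57.1% to 94.4%. A WT library had to meet this minimum against all 3 lines, and the WT libraries had the lowest shares (57.1%, or 20 of 35, 68.8%, and 69.7%). The means used and the other libraries of the same genotype had chosen these genes. The side was thus largely given by the choice, and these shares are a description only. In all 12 choices 22 of the 35 genes were found, whereas 13 were lost at least once, among them CYP4A11, F2, GLT1D1, IGF2, LOC102152581, ODAPH, PRDM16, PRRG4, RBP4, RIPPLY1, SLC16A12, and ZPLD1. GLT1D1, PRDM16, and PRRG4 were lost with any WT library because they then failed the filter on low values. The threshold acts on log2(CPM + 1), which understates the change of low genes: with 0.1 in place of 1 the rule gave 73 genes and with 5 it gave 12.

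The genes that lie next to the core genes were not chosen by the rule, so their pooled difference (the mean of the 3 KO lines minus WT) could be tested. Of 324 such neighbours, up to 5 tested genes on each side of 34 core genes, 53 (16.4%) were higher and 35 (10.8%) lower at an adjusted p below 0.05 (limma), against 13.3% and 9.96% of all genes tested. Both shares lay near the background. S100A16 lies among other S100 genes, of which S100A14 on one side was lower by -0.78 ± 0.10 (SE, adjusted p = 3.26e-05). On its other side S100A2 differed by -0.09 ± 0.10 (adjusted p = 0.542), and S100A13, S100A4, S100A5, S100A6, and S100A1 did not pass either.

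S100A14 did not follow S100A16 in every line, with differences of -0.88 (CGN-KO), -0.11 (CGNL1-KO), and -1.35 (double-KO). Of the 10 neighbours of CTBS, 4 passed, all lower and all on the same side of it: GNG5 (-0.17), RPF1 (-0.26), PRKACB (-0.25), and TTLL7 (-0.78 ± 0.11 SE, adjusted p = 6.75e-05 from limma). SPATA1, the gene between CTBS and GNG5, differed by -0.04 ± 0.08 (adjusted p = 0.758). Of the 9 neighbours of STEAP1 outside the core, 4 passed, with RUNDC3B (-0.62), ADAM22 (-0.28), and CDK14 (-0.24) lower and FZD1 (0.53) higher.

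Around IGF2, 7 of the 10 tested neighbours were higher (adjusted p below 0.05). H19, the noncoding RNA next to IGF2 that is expressed from the other parental chromosome, was at 191, 143, and 182 CPM in WT, 832, 607, and 625 CPM in CGN-KO, 318, 179, and 193 CPM in CGNL1-KO, and 376, 360, and 361 CPM in double-KO cells. Its pooled difference was 1.15 ± 0.14 (SE, adjusted p = 1.42e-05 from limma), with 0.38 in CGNL1-KO, where 1 library overlapped WT, against 1.99 in CGN-KO. CD81, a tetraspanin, rose by 0.57 ± 0.06 (adjusted p = 1.6e-06). The neighbours of IGF2, H19 and CD81 included, and the S100 neighbours were chosen after their values were seen. Single neighbours of other core genes differed as well, such as NRG1 (0.96) beside LOC102152581 and POU3F3 (-0.95) near IL1RL1. IGF2, F2, and PRRG4 share a chromosome with CTNND1, and over the 398 tested genes placed on it the median difference was 0.088 (CGN-KO), 0.049 (CGNL1-KO), and 0.296 (double-KO). The part of this shift in the values of IGF2 and F2 was not tested.

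**Figure D4:**
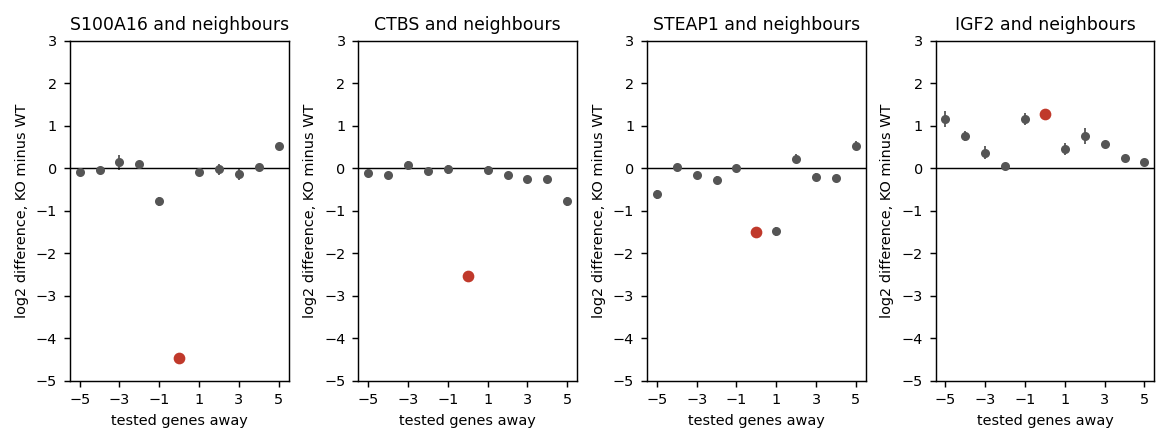
Pooled log2 difference (mean of the 3 KO lines minus WT, bars are SE) of 4 core genes (red) and of the tested genes up to 5 places away on each side (grey). S100A16 and CTBS stand far below their neighbours, STEAP1 has the core gene STEAP2 beside it (-1.51 and -1.49), and 7 of the 10 neighbours of IGF2 were higher.

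The core was set beside 19 gene lists, tested in the same pooled comparison. With a 2-fold minimum 62 genes were higher (0.490%) and 38 lower (0.300%), all 35 core genes among these 100 by construction, so that no more is read from that overlap. Without it, 13.3% of all genes tested were higher and 9.96% lower at an adjusted p below 0.05, and the lists are read against these shares. By line the shares higher and lower at this adjusted p were 11.2% and 7.87% (CGN-KO), 6.81% and 3.49% (CGNL1-KO), and 14.8% and 11.5% (double-KO). The median pooled difference of all genes tested was -0.001.

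Genes of the interferon response were mostly lower: 16 of 25 tested were lower (64.0%) and 1 higher, with a median of -0.303. By line 12, 5, and 17 were lower in CGN-KO, CGNL1-KO, and double-KO cells. ISG20, an antiviral exonuclease, fell by 1.01 on the log2 scale (SE 0.12, adjusted p = 2.12e-05 from limma), from 8.37 to 10.6 CPM in WT to 2.62 to 8.77 CPM in KO libraries. CMPK2, a mitochondrial nucleotide kinase, changed by -0.76 ± 0.07 and IFIT3 by -0.66 ± 0.07 (SE), both without overlap of KO and WT libraries. With the 9 KO libraries taken as 1 group, 9 were lower (36.0%), against 5.19% of all genes tested in that fit. This fit adds the spread between lines to the error but still treats the 9 libraries of 3 clones as separate replicates. Its p-values therefore do not take the line as the unit. No interferon list gene was in the core.

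Tight junction genes were lower more often than the background, with 10 of 27 lower (37.0%) and 3 higher, and a median of -0.072. CGN and CGNL1, the targeted genes, were 2 of the 10 and the 2 that reached 2-fold. CLDN3, a barrier-forming claudin, fell by 0.68 (SE 0.13, adjusted p = 0.00162 from limma), from 37.1 to 57 CPM in WT to 20.5 to 39.1 CPM in KO libraries. With the KO libraries as 1 group, 5 tight junction genes were lower (18.5%), the targeted CGNL1 among them, against the 5.19% of all genes in that fit. Of 24 genes of adherens junctions and desmosomes, 3 were higher and 3 lower. PLEKHA7, a partner of paracingulin at adherens junctions, changed by -0.80 ± 0.10 (SE, adjusted p = 2.24e-05), from 5.54 to 6.68 CPM to 2.32 to 3.6 CPM, whereas NECTIN3 rose by 0.68 ± 0.06 (adjusted p = 3.65e-07). DSC2, a desmosomal cadherin, changed by -0.38 ± 0.05.

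Of 14 SRF and MRTF targets, 5 were higher and 1 lower. MYL9, a regulatory light chain of nonmuscle myosin-2, rose by 1.21 ± 0.08 (SE, adjusted p = 2.23e-08 from limma), from 9.88 to 13.1 CPM in WT to 20 to 39.2 CPM in KO libraries. It missed the core through CGNL1-KO, where its difference was 0.90. CNN2, a calponin, rose by 0.60 ± 0.06. Of 26 genes for actin assembly and membrane linkers, 2 were higher and 3 lower. BASP1, a membrane-bound actin regulator, had differences of 1.85 (CGN-KO), 0.31 (CGNL1-KO), and 2.84 (double-KO). CAPZA1 and ACTN1 had pooled differences of -0.22 ± 0.06 and -0.21 ± 0.06 (SE), with -0.09 and 0.0 in CGNL1-KO (adjusted p = 0.507 and 0.999 from limma). Of 18 YAP and TEAD targets, 4 were higher and 0 lower by limma, with 0 lower by edgeR too. TGFB2 rose by 0.92 ± 0.06 and CTGF by 0.62 ± 0.08, both without overlap of KO and WT libraries.

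Genes of the extracellular matrix and of Wnt, Notch, and BMP signalling were more often higher. Of 30 matrix and integrin genes 14 were higher (46.7%) and 3 lower, with COL5A1 at 0.83 ± 0.06 (SE) and FN1 (fibronectin) at 0.76 ± 0.08. Of 8 mesenchymal genes tested 4 were higher, FN1 of the matrix list among them, whereas VIM, SNAI2, ZEB1, and S100A4 did not pass. CDH2, COL1A1, COL1A2, and THY1 were on this list but not among the listed genes, so they were not tested. SPARC rose by 0.86 ± 0.11 from a low level, with 0.471 to 0.938 CPM in WT and 1.42 to 3.21 CPM in KO libraries. Of 18 matrix proteases and inhibitors 8 were higher and 3 lower, the core gene TIMP1 among the lower. MMP13, a collagenase, changed by -1.82, -0.78, and -3.4 in CGN-KO, CGNL1-KO, and double-KO cells and so lay outside the core.

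Of 28 Wnt, Notch, and BMP genes 16 were higher (57.1%) and 2 lower, with a median of 0.294. By line 18, 5, and 13 were higher in CGN-KO, CGNL1-KO, and double-KO cells. RNF43, a ubiquitin ligase that limits Wnt receptors, rose by 0.95 ± 0.08 (SE, adjusted p = 2.92e-07 from limma), from 4.59 to 5.72 CPM in WT to 8.83 to 13 CPM in KO libraries. ID1 and ID3, targets of BMP signalling, had differences of 1.42 and 1.36 in CGN-KO but of 0.30 and 0.25 in CGNL1-KO. JAG1, BMP2, and BMP7, 3 of the 16, lie in 2 runs of 117 neighbouring tested genes whose median difference was 0.45, 0.42, and 0.46 in the 3 lines. PCNA and AURKA of the cell cycle list (4 of 30 higher, 1 lower) and LAMA5 of the matrix list lie there too, and no core gene does. The part of these runs in the list counts was not tested.

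Genes of the lysosomal hydrolase list were more often higher than the background, unlike CTBS. Of 22 tested 12 were higher (54.5%), and CTBS, the core gene, was the 1 that was lower. The list also holds LAMP1 and LAMP2, lysosomal membrane proteins that are not hydrolases, and both are among the 12. CTSD, the protease cathepsin D, rose by 0.93 ± 0.08 (SE, adjusted p = 2.88e-07 from limma), from 325 to 381 CPM in WT to 541 to 817 CPM in KO libraries, and GAA, the acid glucosidase of glycogen, by 0.52 ± 0.11. With the KO libraries as 1 group 6 were higher (27.3%), against 7.82% of all genes tested in that fit.

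The hypoxia and glycolysis list, which holds EPAS1, had 8 of 29 genes higher and 1 lower. CA12, a membrane carbonic anhydrase, rose by 1.0 ± 0.09 (SE, adjusted p = 7.8e-07 from limma), most in CGNL1-KO (1.46). Of 21 chemokine and cytokine genes, 5 were higher, ACKR3 and IL1RL1 of the core among them, and 3 lower. With the KO libraries as 1 group, limma called 4 higher and 0 lower, with 0 lower at an unadjusted p below 0.05. CCL2, a monocyte chemokine, had differences of -0.76, 0.23, and -2.17 in CGN-KO, CGNL1-KO, and double-KO cells. Of 21 S100 and annexin genes, 4 were lower, S100A16 and ANXA13 included, and 1 higher.

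The other lists had members in both directions. Of 27 genes of epithelial identity and kidney tubule 9 were higher and 4 lower, and TFAP2A, a transcription factor, had differences of -2.43 and -2.7 in CGN-KO and double-KO cells against -0.17 in CGNL1-KO. Of 23 receptor tyrosine kinase genes 6 were higher and 5 lower, with FGFR2 at 0.82 ± 0.05 (SE). Of 23 solute transport genes 7 were higher and 5 lower, and SLC7A11, the cystine transporter, changed by -1.57 ± 0.14 (adjusted p = 5.65e-07 from limma), with -0.93 in CGNL1-KO. In the list of leukocyte, endothelial, and neural genes 3 of 15 were tested, and 0 passed by limma, whereas edgeR called 1 lower.

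**Figure D5:**
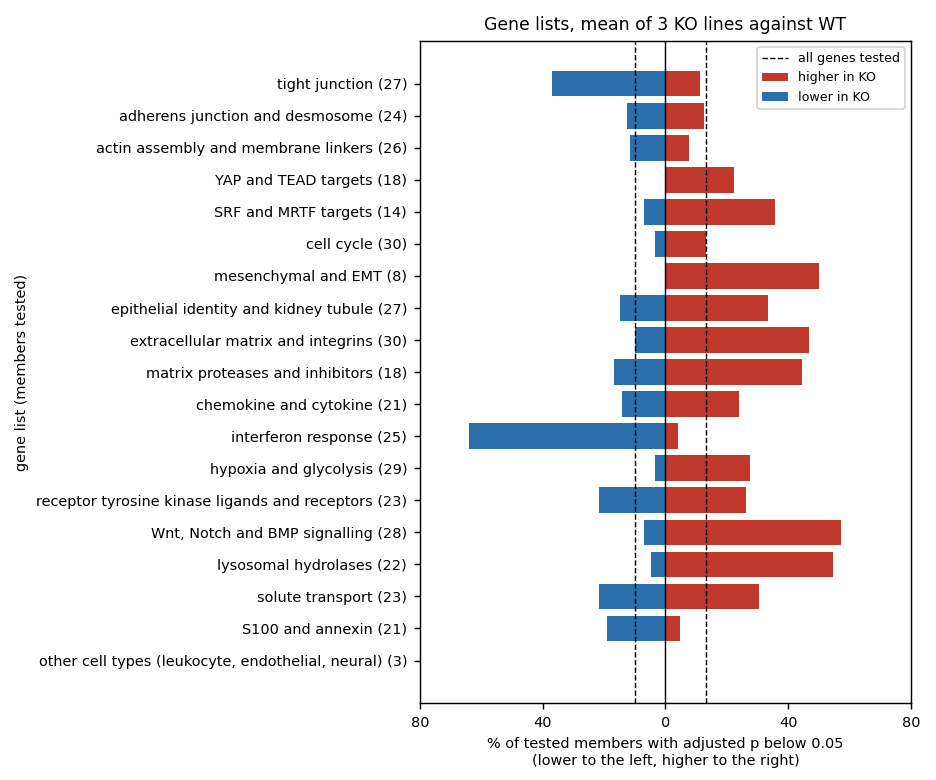
Share of the tested members of 19 gene lists (number tested in brackets) that were higher (red, right) or lower (blue, left) in the mean of the 3 KO lines than in WT at an adjusted p below 0.05, in percent; dashed lines give 13.3% and 9.96%, the shares of all genes tested. The longest bars are the lower interferon genes (64.0%) and the higher Wnt, Notch, and BMP genes (57.1%), and bars include list members that are core genes.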

How the data were processed

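RNASeq libraries of MDCKII cells (4 genotypes, 3 libraries each) were grouped by the genotype in the labels. Per the submitters' processing notes, reads were aligned with STAR 2.7.0f to CanFam3.1 and counted with HTSeq 0.9.1. The authors deposited normalized counts for 13672 genes, in CPM on a library size scaled by TMM, which were treated as a signal. The annotation release and the strand setting of the counting are not given in the sources used here. The deposited values were whole multiples of 1 read (100% within 0.1 reads), so the reads were recovered, 16837532 to 30086076 per library, and served for the count tests. 16 gene names in date form were left as they are. 1 double-KO column carries no replicate number.

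The 12650 genes above 1 CPM in at least 3 libraries were tested with limma 3.58.1 in R 4.3.3 (trended eBayes, Benjamini-Hochberg) with log2(CPM + 1) as input and a single fit of all 12 libraries, without a block. Differences are on this scale, with its pseudocount of 1. The pooled comparison is the mean of the 3 KO lines minus WT. Alternatives were edgeR 4.0.16 and DESeq2 1.42.0 on the recovered reads (214 and 215 genes called in the pooled comparison at 2-fold), other pseudocounts, filters, scalings and thresholds, a replicate block, and each library left out. The pairing of CGN-KO and CGNL1-KO libraries comes from the data: the deviations of same-numbered libraries from their group means correlated at 0.632, 0.475, and 0.179 across genes, and neither the labels nor the methods say what a number marks. The same correlations of WT were 0.373, 0.318, and -0.0822 with CGN-KO and 0.329, 0.371, and 0.011 with CGNL1-KO. The comparisons with WT were nevertheless fitted without a block in the main fit. The scripts were tested on simulated data.

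The members and lists were chosen with earlier results of these data known. 1 core gene and 2 lists are not reported here and were left out of the plots and of the counts of the other lists. The other core genes, the 3 genes inside and outside the threshold, CGN, CGNL1, and, per list, up to 3 genes with the largest pooled difference past the test were named, the last given in part. JAG1, BMP2, BMP7, LAMA5, CTNND1, the neighbours of IGF2, CTBS, and STEAP1, and the runs of neighbours (NAPB to PCNA and ADNP to PCMTD2) were chosen after their values were seen. Gene order was taken from RefSeq on the assembly UU_Cfam_GSD_1.0, matched by symbol (11748 of the tested genes, 92.9%, and 34 of the 35 core genes). This assembly is not the build of the files, so no coordinates or sequences are given. Plots were drawn with matplotlib 3.10.9.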

Additional observations from a re-analysis of the deposited data

Results flagged for a closer look

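In 5 comparisons a core gene differed between 2 KO lines by at least 2-fold with an adjusted p below 0.05 (limma). The rule that chose the core used the means of the same lines, so these differences are a description only. CGN-KO minus CGNL1-KO was 1.77 for ACKR3, 1.31 for CCL17, 1.05 for ZPLD1, and 1.01 for TM4SF18 on the log2 scale, and double-KO minus CGNL1-KO was 1.22 for ACKR3. In each of them all 3 libraries of one line lay above all 3 of the other. As each genotype is 1 clone, the genotype and the clone cannot be told apart.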

How the results depend on the processing

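The size of the core depends on how low levels are treated. It was 73 genes with a pseudocount of 0.1, 12 with a pseudocount of 5, 79 with edgeR, and 82 with DESeq2 fold changes from recovered reads, and the 35 genes were all within the cores of 73, 79, and 82. A minimum of 1.5-fold gave 152 genes and a minimum of 1.5 on the log2 scale 9. The genes called in the pooled comparison (100) were 201 and 41 with these pseudocounts, 214 with edgeR, 215 with DESeq2, and 2942 at any fold. The core genes that differed at least 2-fold between KO lines (4) were 8 and 2 with these pseudocounts and 8 with both edgeR and DESeq2. With the replicate block over the 11 numbered libraries the counts were 36 core genes, 107 pooled calls, 16 core genes that differed among lines, and 4 in a pair. Leaving out 1 library gave 32 to 37, 89 to 106, 11 to 15, and 3 to 5. Without the libraries numbered 1, chosen after the data were seen, they were 33, 95, 18, and 4, and the interferon list had 15 lower genes, the Wnt, Notch, and BMP list 15 higher, and the tight junction list 6 higher and 10 lower. With the KO libraries as 1 group, 10 of the 38 counts of list members higher or lower moved by over 1.5 times, all to fewer genes. No direction of a single gene or of a list reversed. Of 1296 recomputed values of single genes 1211 stayed within the spread or on their side of the threshold, 43 moved, and 42 lost the call. Depth limits S100A16, PRDM16, PRRG4, GLT1D1, and F2, which rest on few reads in 1 of the groups.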
